A study of Mus musculus with 6 samples.

Results

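The CCR4-NOT complex is the main cytoplasmic deadenylase of animal cells, and 9 of its genes (Cnot1, Cnot2, Cnot3, Cnot4, Cnot6, Cnot6l, Cnot7, Cnot8 and Cnot10) were followed in whole brains of Foxf2 mutant and wild-type mouse embryos. Every probe set annotated to a single gene, that gene being among the 9, was taken, which gave 30 probe sets of 45037 on the array. They covered 8 of the 9 genes. Cnot1 had no probe set of its own, since both of its 2 probe sets were annotated to a second gene as well, and it is not described further. The genes were chosen because 1 Cnot4 probe set, 1421000_at, read lower in the mutant, so the mutant against wild-type differences of the members are given as descriptions. Of the 30 probe sets, 28 lay above the filter on dim signal that the whole array was tested with, and the other 2, both of Cnot2, lay below it.

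The 3 Foxf2 mutant brains and the 3 wild-type brains came from embryos at embryonic day E18.5 on a C57/bl6 background, with 1 Affymetrix array per sample. The labels call the mutant genotype only "Foxf2 Mutant". They do not give the allele, its zygosity, the sex of the embryos, or whether an array held 1 embryo or a pool, so p-values measure only the spread between these arrays. Foxf2 is a forkhead transcription factor gene active in brain pericytes. Its brighter probe set read 8.06, 3.31 and 7.57 on the mutant arrays, against 18.6, 24.4 and 13.8 on the wild-type arrays, below the filter on dim signal.

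Messenger RNAs carry a poly(A) tail, and its removal by CCR4-NOT is usually the first step of their decay. Cnot1 is the scaffold. A CAF1-type nuclease (Cnot7 or Cnot8) and a CCR4-type nuclease (Cnot6 or Cnot6l) shorten the tail, Cnot2 and Cnot3 form the NOT module, and Cnot10 binds the amino-terminal part of the scaffold. Cnot4 is a RING ubiquitin ligase, which in human cells is not a stably bound subunit. The complex is brought to its targets by adaptors such as the Tob and Btg proteins, the CPEB and Pumilio proteins and the microRNA machinery.

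Values throughout are linear MAS5 signals, called intensities here, and differences are on the log2 scale after 16 was added to each intensity, mutant minus wild type. Bulk RNA cannot tell fewer cells of a type from less RNA per cell. Markers of the labelled tissue were bright on every array: 8 neuronal genes summed to 15431 to 15589 on the mutant arrays and 14780 to 15334 on the wild-type arrays. Transcripts of neighbouring tissue differed between single arrays. The summed signal of 5 skeletal muscle genes was 98.8, 97.7 and 1139 on mutant arrays 1, 2 and 3, against 79.8 to 95.5 on the wild-type arrays. For 4 pituitary genes it was 38.3 to 266 on the mutant arrays, against 63.6, 44.7 and 1907 on wild-type arrays 1, 2 and 3. Over 5 endothelial genes the sums were 494 to 570 on the mutant arrays, against 669 to 698 on the wild-type arrays, with lower means for Cldn5, Kdr and Tek and higher means for Pecam1 and Cdh5. The Y-linked transcript Eif2s3y read 260 on mutant array 2 and at most 2.12 on the other arrays. The part of these differences in the results was not tested.

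Cnot4 was read by 5 probe sets, and they did not move as a block. The probe set that chose the genes, 1421000_at, had intensities of 108, 114 and 112 in mutant brains, against 179, 191 and 178 in wild-type brains. The groups did not overlap, and the mutant arrays lay within a few units of each other. The means were 111 ± 2.98 in the mutant and 183 ± 7.27 in the wild type (SD, n = 3 each), a log2 difference of -0.64 ± 0.08 (SE).

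The other 4 Cnot4 probe sets read from slightly higher to moderately lower in the mutant. Probe set 1437586_at had 86.5, 113 and 103 in mutant brains, against 139, 116 and 124 in wild-type brains. Here too the groups did not overlap, though the highest mutant and the lowest wild-type array were close, and the log2 difference was -0.29 ± 0.11 (SE). Probe set 1420999_at had 186, 152 and 131 in mutant brains, against 199, 183 and 172 in wild-type brains. Mutant array 1 lay among the wild-type values, and the difference was -0.23 ± 0.12. It was -0.35 without mutant array 1 and -0.12 without mutant array 3. Probe set 1450083_at had 75.0, 62.3 and 71.5 in mutant brains, against 64.7, 76.4 and 70.4 in wild-type brains, a difference of -0.02 ± 0.11 with the groups interleaved. The brightest, 1436645_a_at, had 206, 194 and 214 in mutant brains, against 204, 191 and 169 in wild-type brains, and its difference of 0.12 ± 0.09 ran the other way, at 0.05 without wild-type array 3. The suffix _a_at marks probes shared by transcript variants of a gene. The median difference over these 4 probe sets was -0.12.

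**Figure D1:**
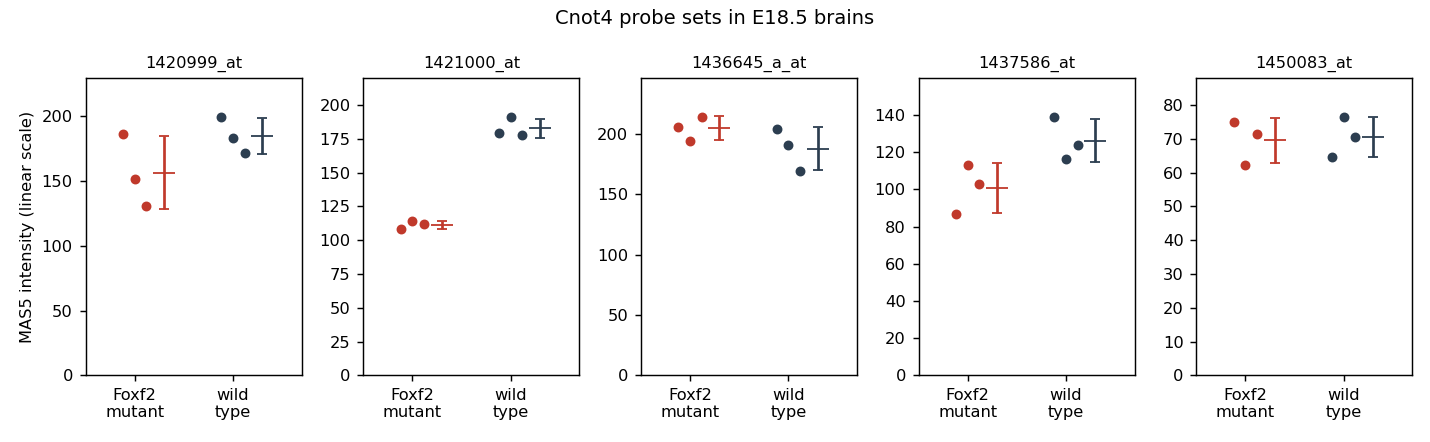
Intensity (MAS5, linear scale) of the 5 Cnot4 probe sets on the 3 Foxf2 mutant arrays (red, left in each panel) and the 3 wild-type arrays (dark, right), with the mean and SD beside the points. Only 1421000_at and 1437586_at have groups that do not overlap, and 1436645_a_at has a higher mean in the mutant.

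The log2 signal of 1421000_at was also taken relative to each other Cnot4 probe set on the same array, where the height of such a ratio has no meaning and its difference between the groups does. Relative to 1436645_a_at it was -0.84, -0.70 and -0.84 log2 units on the mutant arrays, against -0.17, 0.00 and 0.06 on the wild-type arrays. The means differed by -0.76. Relative to 1450083_at the means differed by -0.62, relative to 1420999_at by -0.41 and relative to 1437586_at by -0.35. In all 4 pairings the mutant arrays lay below the wild-type arrays without overlap. All 4 share 1421000_at, whose choice favours both this direction and the lack of overlap, so nothing is read from their count. The files do not place the probe sets along the Cnot4 transcript, and which exons or variants each one reads is not given in the sources used here.

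The fit across the whole array placed 1421000_at past its threshold, an adjusted p of 0.05 over 27022 tested probe sets (limma, Benjamini-Hochberg). It was the only one of the 28 CCR4-NOT probe sets to pass, where 0.389% of all tested probe sets passed in either direction 0.0222% as lower and 0.366% as higher. Since this call chose the genes, nothing is read from the count. The nearest member outside the threshold was a Cnot10 probe set with a difference of 0.46, and the nearest lower one another Cnot10 probe set with -0.22. The size of the Cnot4 difference moved little when single arrays were left out, from -0.61 without wild-type array 2 to -0.66 without wild-type array 3. The call was lost without any 1 of the 6 arrays, with adjusted p from 0.0558 to 0.115 (limma), and without the mean-variance trend, with an adjusted p of 0.0873.

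The stretch before the transcription start of Cnot4 is shown because the gene mutated here encodes a forkhead factor, with those of Cnot3 and Cnot10 for comparison. Each line gives the 250 bases before the start, 5′ to 3′ on the gene's strand, from RefSeq in build GRCm38.p6. Cnot4 lies on chr6:35133738-35133987 (minus strand), Cnot3 on chr7:3645019-3645268 (plus strand) and Cnot10 on chr9:114640201-114640450 (minus strand). Capitals mark matches, on either strand, to 5 motifs, the forkhead core TGTTTAC, the GC box GGGCGG, the CCAAT box, the ETS core CGGAAG and the E-box CACGTG, with overlapping matches counted apart.
Cnot4: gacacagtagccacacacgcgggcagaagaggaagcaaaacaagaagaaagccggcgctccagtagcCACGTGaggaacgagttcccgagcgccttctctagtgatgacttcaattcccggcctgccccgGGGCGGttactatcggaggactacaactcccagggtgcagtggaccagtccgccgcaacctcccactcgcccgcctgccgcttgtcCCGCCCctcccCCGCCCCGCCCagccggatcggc
Cnot3: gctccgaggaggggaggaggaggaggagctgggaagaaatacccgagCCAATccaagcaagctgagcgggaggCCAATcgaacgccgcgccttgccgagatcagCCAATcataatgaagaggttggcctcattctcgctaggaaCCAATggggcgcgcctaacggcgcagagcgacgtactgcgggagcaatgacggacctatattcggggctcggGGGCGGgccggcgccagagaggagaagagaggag
Cnot10: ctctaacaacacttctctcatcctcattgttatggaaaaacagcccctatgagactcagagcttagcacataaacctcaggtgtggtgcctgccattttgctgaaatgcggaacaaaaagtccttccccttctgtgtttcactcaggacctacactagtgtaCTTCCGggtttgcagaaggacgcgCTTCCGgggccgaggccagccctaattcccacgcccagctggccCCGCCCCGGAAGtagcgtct

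The Cnot4 stretch held 4 GC boxes, beginning 120, 34, 23 and 18 bases before the start, and 1 E-box 183 bases before it. Its GC content was 65.2%. The Cnot3 stretch held 4 CCAAT boxes and 1 GC box, and the Cnot10 stretch 3 ETS cores and 1 GC box. RefSeq gave 13 such stretches for 7 of the 9 genes, with none for Cnot1 and Cnot7. The letters of the forkhead core were in 0 of the 13, where 3.17% of all 32851 stretches held them. A GC box was in 10 of the 13, against 32.74% of all stretches, and stretches of the same gene overlap in part. An E-box was in 1, that of Cnot4, against 6.02% of all stretches. These are matches of letters only.

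The CCR4-type nucleases Cnot6 and Cnot6l, close relatives of each other, each had 3 probe sets with a lower and 1 with a higher mean in the mutant. The brightest Cnot6 probe set, 1426682_at, read 941, 848 and 823 in mutant brains, against 862, 839 and 981 in wild-type brains, a log2 difference of -0.04 ± 0.08 (SE). The groups overlapped, with mutant array 3 the lowest and wild-type array 3 the highest of all 6. Probe set 1426684_at read 198, 199 and 165 in mutant brains, against 237, 203 and 237 in wild-type brains, a difference of -0.25 ± 0.10. These groups did not overlap, and wild-type array 2 came close to the mutant values. All 4 Cnot6 probe sets carry the same sequence record in the platform annotation. The remaining Cnot6 probe sets had -0.12 ± 0.07 (1426685_a_at) and 0.07 ± 0.08 (1426683_at).

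For Cnot6l, the brightest probe set, 1425480_at, read 347, 361 and 306 in mutant brains, against 415, 362 and 424 in wild-type brains. Its difference was -0.23 ± 0.09 (SE), and mutant array 2 and wild-type array 2 all but touched. The dimmer probe set 1425481_at read 54.7, 39.8 and 32.5 in mutant brains, against 51.2, 47.1 and 54.0 in wild-type brains, with mutant array 1 the highest of all 6. The other Cnot6l probe sets had differences of -0.06 ± 0.17 (1451723_at) and 0.07 ± 0.11 (1434311_at), the last -0.05 without mutant array 2.

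Cnot7 and Cnot8, the CAF1-type nucleases, are alternatives to each other in the complex. The 3 Cnot7 probe sets had the narrowest range of differences of the 8 measured genes. The brightest, 1423641_s_at, read 1378, 1330 and 1367 in mutant brains, against 1306, 1272 and 1369 in wild-type brains, a log2 difference of 0.05 ± 0.06 (SE; 95% interval -0.08 to 0.17). The suffix _s_at marks probes that can match more than 1 transcript. The other Cnot7 probe sets had 0.06 ± 0.06 (1430519_a_at) and -0.01 ± 0.07 (1460665_a_at).

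Both Cnot8 probe sets had lower means in the mutant, with overlapping groups. Probe set 1451102_at read 342, 285 and 293 in mutant brains, against 348, 351 and 331 in wild-type brains, a log2 difference of -0.16 ± 0.08 (SE). Mutant array 1 lay inside the wild-type range and the other mutant arrays below it. Probe set 1421135_a_at read 325, 256 and 232 in mutant brains, against 356, 369 and 284 in wild-type brains, a difference of -0.30 ± 0.13. Again mutant array 1 was the highest of its group, and wild-type array 3 read below it.

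**Figure D2:**
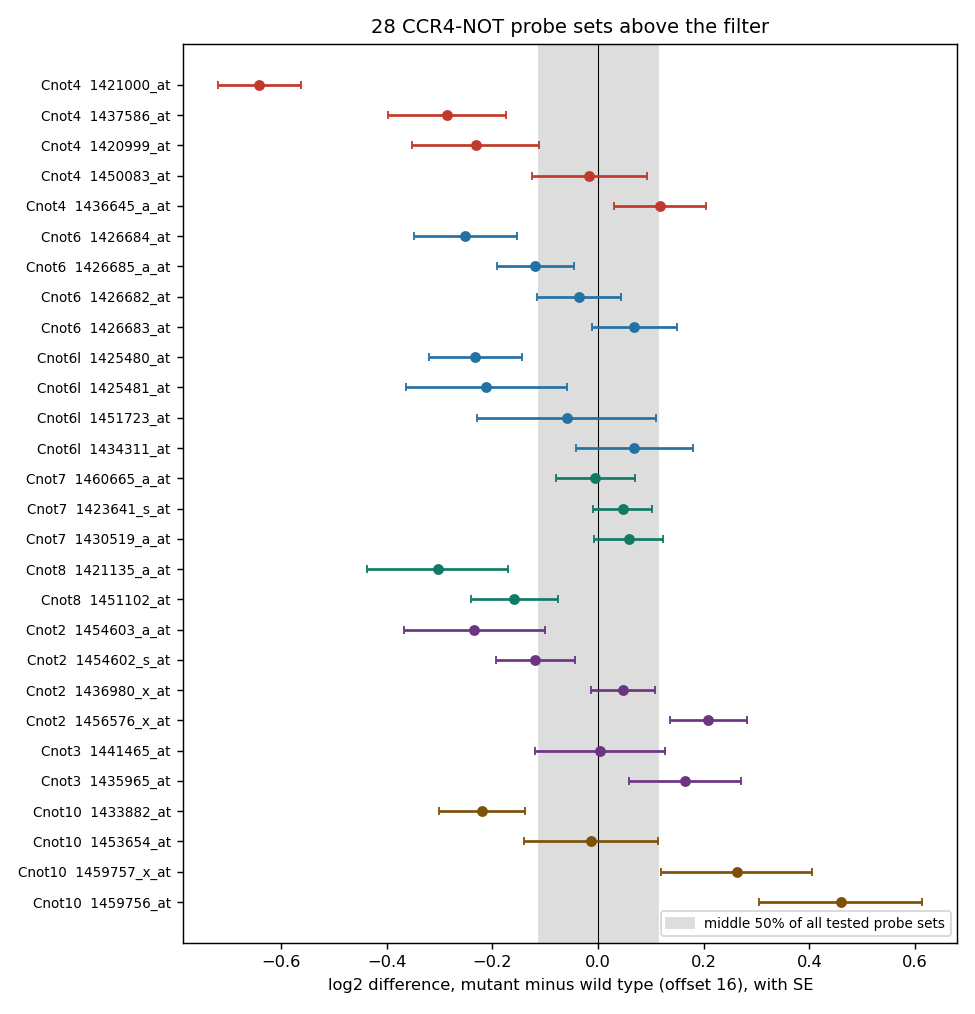
Log2 difference (mutant minus wild type, offset 16) with its SE for the 28 CCR4-NOT probe sets above the filter, grouped by gene and ordered within it. The grey band spans the middle 50% of all 27022 tested probe sets, from -0.11 to 0.11; 1421000_at of Cnot4, at -0.64, lies farthest from it, and Cnot2, Cnot4, Cnot6, Cnot6l, Cnot7 and Cnot10 have probe sets on both sides of 0, those of Cnot7 all above it with quantile normalization.

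Cnot2 and Cnot3 bind each other and the carboxy-terminal part of Cnot1. The brightest Cnot2 probe set, 1436980_x_at, read 486, 501 and 498 in mutant brains, against 495, 465 and 477 in wild-type brains, a log2 difference of 0.05 ± 0.06 (SE). Probe set 1456576_x_at read 412, 439 and 385 in mutant brains, against 341, 352 and 369 in wild-type brains, and its difference of 0.21 ± 0.07 came with groups that did not overlap. Probes of suffix _x_at can match other transcripts. Probe set 1454603_a_at read 325, 246 and 246 in mutant brains, against 295, 292 and 383 in wild-type brains, a difference of -0.23 ± 0.13, which was -0.36 without mutant array 1 and -0.11 without wild-type array 3. The fourth above the filter, 1454602_s_at, had -0.12 ± 0.07, which was -0.07 without mutant array 3, and the 2 probe sets below the filter read at most 7.17 on any array.

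Cnot3 had 2 probe sets. The brighter, 1435965_at, read 142, 109 and 118 in mutant brains, against 109, 101 and 112 in wild-type brains, a log2 difference of 0.16 ± 0.11 (SE) that was 0.07 without mutant array 1. The other, 1441465_at, read 42.6, 46.6 and 38.3 in mutant brains, against 41.0, 47.5 and 38.6 in wild-type brains, the same range in both groups.

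Cnot10, like Cnot4, had probe sets that differed widely from each other. Its brightest, 1433882_at, read 173, 173 and 165 in mutant brains, against 200, 186 and 219 in wild-type brains. The groups did not overlap, and the log2 difference was -0.22 ± 0.08 (SE). The dimmer probe set 1459756_at read 31.7, 44.5 and 49.8 in mutant brains, against 22.0, 28.7 and 27.0 in wild-type brains, also without overlap, with a difference of 0.46 ± 0.15 in the opposite direction. At this low signal the difference depended on the offset, with 0.66 at an offset of 1 and 0.23 at an offset of 64. Its neighbour 1459757_x_at, made from the same sequence record in the platform annotation, had 0.26 ± 0.14. The dimmest, 1453654_at, read 13.0 to 16.8 on the mutant arrays and 12.5 to 16.8 on the wild-type arrays, at the level of the filter.

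**Figure D3:**
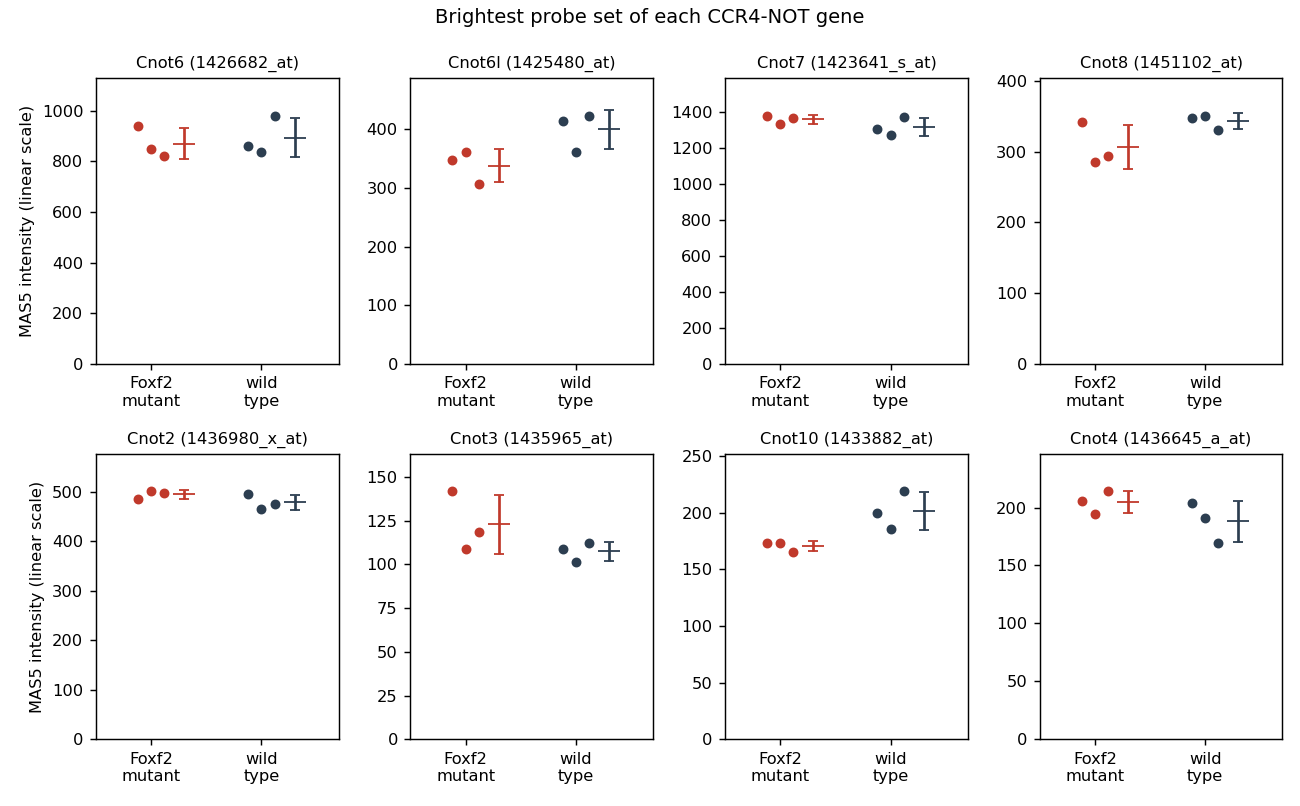
Intensity (MAS5, linear scale) of the brightest probe set of each of the 8 measured genes on the 3 Foxf2 mutant arrays (red, left) and the 3 wild-type arrays (dark, right), with mean and SD beside the points. The groups do not overlap for Cnot6l and Cnot10, both lower in the mutant, and they overlap for the other 6 genes, Cnot4 among them. Of the 12573 genes of the array treated alike, 10% read lower without overlap and 10.9% higher.

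Over the 23 tested probe sets of the 7 measured genes other than Cnot4, 13 had a lower and 10 a higher mean in the mutant. Their median log2 difference was -0.01, beside -0.01 over all 27022 tested probe sets. It was -0.07 with median centring, which lowers the difference of every probe set on the array by the same amount. None passed the threshold (limma, adjusted p under 0.05). At an unadjusted p under 0.05, 4 read lower and 2 higher, where 5.79% of all tested probe sets read lower and 7.76% higher. The groups did not overlap for 3 lower and 2 higher probe sets of the 23, against 9.38% and 10.9% of all tested. Probe sets of 1 gene share its transcript, and the contrast is the one that chose the genes, so these counts are a description.

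Reduced to the brightest probe set of each gene, 4 of the 8 genes had a lower and 4 a higher mean. Their median was 0.00, with a range of -0.23 to 0.16. With median centring of the arrays, which lowers the difference of every gene by the same amount, Cnot2 and Cnot7 turned to -0.01 each. Among the 12573 genes of the array treated alike, and without centring, the median was -0.01. By this measure 0 of the 8 genes passed (limma), where 0.207% of all genes did. At an unadjusted p under 0.05, 2 read lower, Cnot6l and Cnot10, and 0 higher, where 6% and 7.49% of all genes did. Cnot4 was then represented by 1436645_a_at and its mean was higher in the mutant. In wild-type brains the mean of 1436645_a_at, 188, was close to those of 1420999_at (185) and 1421000_at (183).

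The place of each array within its group was counted over the 28 probe sets. They come from 8 genes, and probe sets of 1 gene share its transcript, so these counts are a description. Mutant array 1 was the highest of the 3 mutant arrays for 15 of the 28 probe sets, against 33.8% of all tested probe sets. Mutant array 3, the array with the muscle transcripts, was the lowest for 13 of the 28, against 36.2% of all tested. Among wild-type arrays, array 2 was the lowest for 15 of the 28, against 34.2% of all tested, and array 3 the highest for 14, against 33.8%. Probe set 1421000_at had mutant array 1 the lowest and mutant array 2 the highest of its group, though close together at 108 and 114.

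The 5 genes whose pattern over the 6 arrays was most like that of 1421000_at were Pold2, a DNA polymerase delta subunit, Desi1, Pgd, an enzyme of the pentose phosphate pathway, Mrpl37, a mitochondrial ribosomal protein, and Arfgap2, a regulator of vesicle coats. Pearson correlations with 1421000_at were 0.988 to 0.992 over 6 arrays. These genes were picked from all tested probe sets for that likeness, and the step between the groups is part of each correlation. Desi1 had the largest step of the 5, with 182, 198 and 192 in mutant brains, against 247, 258 and 243 in wild-type brains, a log2 difference of -0.36. The other 4 had differences of -0.18 to -0.26. No other CCR4-NOT gene was among them, and nothing is read from that, since only 5 genes were picked from all tested.

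Of the genes that work with the complex, 1 adaptor passed the test across the array and no other listed gene did. The 83 listed decay genes with a singly named probe set were each represented by their brightest probe set. Cnot9 and Cnot11, further subunits, and Tnks1bp1, a partner protein, had differences of -0.14, -0.12 and -0.03, with 0 of 3 past the threshold (limma; 0 of 3 at an unadjusted p under 0.05).

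Of the 24 adaptors above the filter, 1 rose and 0 fell, beside 0.199% of all genes that rose and 0.00795% that fell, and the median of the list was -0.06, beside -0.01 over all genes. The one that rose was Cpeb2, which binds mRNAs and controls their translation. Its brightest probe set read 305, 269 and 254 in mutant brains, against 195, 172 and 177 in wild-type brains, a log2 difference of 0.56 ± 0.09 (SE; adjusted p = 0.0482, limma). The lowest mutant array was above the highest wild-type one. A second Cpeb2 probe set, 1458518_at, read 139, 145 and 111 in mutant brains, against 202, 156 and 163 in wild-type brains, which is the opposite order, with a difference of -0.36 ± 0.12. The third had 0.02 ± 0.13. The Cpeb2 call held in 5 of 17 alternatives and was lost without any 1 array. Over all 17 alternatives the adjusted p ranged from 0.0247 to 0.195 (limma) and the difference from 0.47 to 0.62.

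At an unadjusted p under 0.05, 5 adaptors read higher and 2 lower, where 7.49% and 6% of all genes did. The higher ones were Cpeb2, Tob1, Btg1, Tob2 (0.35) and Cpeb4 (0.25), and the lower ones Nanos1 (-0.24) and Pum2 (-0.18). All but Cpeb2 are named here after their values were seen. Tob1 and Btg1 are antiproliferative proteins that bind the CAF1 nucleases. Tob1 read 288, 304 and 258 in mutant brains, against 210, 189 and 218 in wild-type brains, a log2 difference of 0.43 ± 0.09 (SE) that did not pass the threshold (adjusted p = 0.0837, limma). Btg1 read 1273, 1092 and 1205 in mutant brains, against 920, 884 and 1010 in wild-type brains, a difference of 0.34 ± 0.08 (adjusted p = 0.111, limma). Neither gene's groups overlapped on this probe set. The other Tob1 probe set, 1440844_at, lay below the filter on dim signal and had 0.07 ± 0.15. A second bright Btg1 probe set, 1437455_a_at, had 0.33 ± 0.15 with overlapping groups, and the third, 1442018_at, ran the other way with -0.18 ± 0.14. Btg2, of the same family, had -0.11 ± 0.12. The scaffold proteins of microRNA silencing, Tnrc6a, Tnrc6b and Tnrc6c, had -0.13, -0.09 and -0.08.

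**Figure D4:**
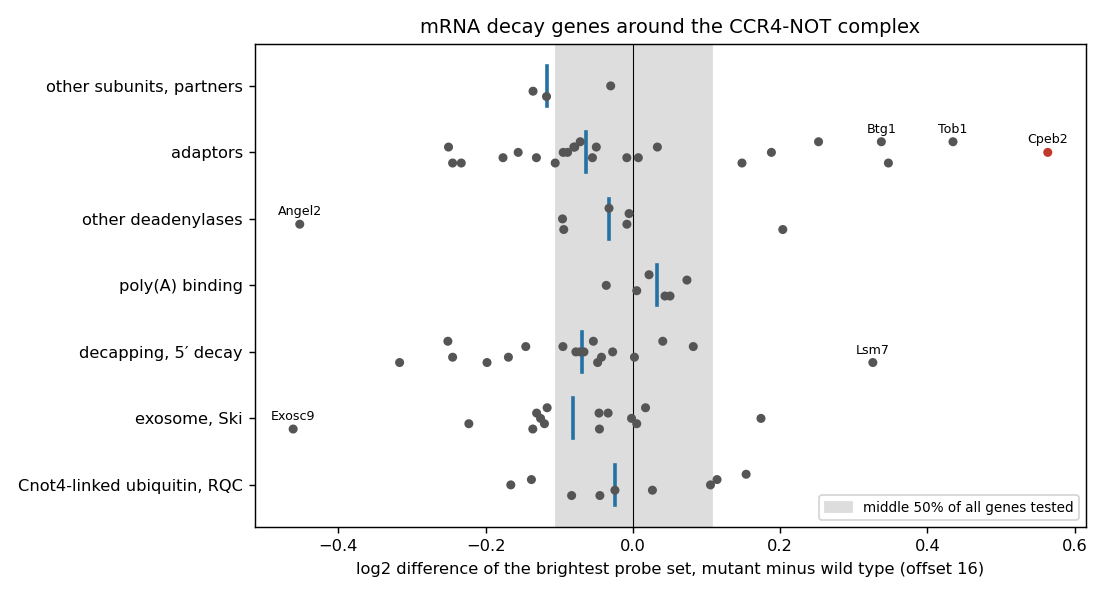
Log2 difference (mutant minus wild type, offset 16) of the brightest probe set of each gene above the filter in 7 lists of mRNA decay genes, with Cnot4-linked ubiquitin and ribosome quality control (RQC) genes at the bottom. Each point is a gene, the red point (Cpeb2, at 0.56) passed the threshold, blue bars are list medians and the grey band spans the middle 50% of the 12573 genes tested.

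The remaining lists had 0 members past the threshold (limma). Of 7 other deadenylases, 1 read lower at an unadjusted p under 0.05, where 6% of all genes did. This was Angel2, with 315, 253 and 296 in mutant brains, against 421, 353 and 426 in wild-type brains. Its log2 difference was -0.45 ± 0.10 (SE, adjusted p = 0.107, limma), and its other 5 probe sets had -0.22 to 0.00. Of these, 1431606_a_at had -0.22 ± 0.09 with groups that did not overlap, and the groups of the rest overlapped. Angel1 had 0.20. The 6 poly(A) binding proteins and their partners, with a median of 0.03, had none at an unadjusted p under 0.05, and the largest differences were those of Paip1 (0.07) and Pabpc1 (0.05).

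Of 18 decapping and 5′ decay genes, 3 read lower and 1 higher at an unadjusted p under 0.05, where 6% and 7.49% of all genes did, and the median of the list was -0.07. The 3 lower ones, named after their values were seen, were Edc4 (-0.17), Lsm2 (-0.24) and Lsm14a (-0.25). The higher one was Lsm7, a subunit of the ring that binds shortened tails, with 0.33 ± 0.09 (SE). Lsm14b had -0.32 ± 0.14 and did not reach that level. It read 581, 526 and 634 in mutant brains, against 631, 641 and 939 in wild-type brains, with wild-type array 3 far above the rest. Of 14 exosome and Ski complex genes, none reached an unadjusted p under 0.05, and the median of the list was -0.08. The groups did not overlap for 4 lower and 1 higher of these genes, against 10% and 10.9% of all genes. Exosc9 had -0.46 ± 0.26 with widely scattered arrays, from 107 to 234 in the mutant and from 165 to 299 in the wild type, and the helicase gene Skiv2l had -0.22 ± 0.13. Of 9 ubiquitin and ribosome quality control genes around Cnot4, none reached an unadjusted p under 0.05 on its brightest probe set. Ube2d3, one of the conjugating enzymes that work with Cnot4, had -0.17 ± 0.10 and Pelo, a ribosome rescue factor, 0.15 ± 0.13. The other 6 Ube2d3 probe sets had -0.22 to -0.02. Of these, 3 read lower without overlap of the groups, where 9.38% of all tested probe sets did. One of the 3, 1450859_s_at, had -0.22 ± 0.06 with an unadjusted p of 0.00454 and an adjusted p of 0.16 (limma).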

How the data were processed

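Whole-brain RNA of 3 Foxf2 mutant and 3 wild-type mouse embryos was measured on Affymetrix arrays, labelled with biotin per the labels' protocols. The deposited intensity values are MAS5 signals on a linear scale, per the submitters' processing notes, which name no version. After trimming 2% of probe sets at either end, every array averaged 100, so the arrays had been scaled and were not normalized again. The 64 control probe sets were left out. Of the 45037 others, 34945 had 1 gene symbol in the platform annotation, 932 several and 9160 none listed; the Entrez gene of 34741 was found in a RefSeq table (GRCm38.p6) and 0 symbols needed an update.

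Values were analysed as log2(intensity + 16), which understates changes of dim genes, with limma 3.58.1 in R 4.3.3 (lmFit and trended eBayes), two-sided, on all 45037 probe sets. Benjamini-Hochberg adjustment covered the 27022 whose mean log2 value reached the 40th percentile (about 13.2 in intensity). A listed gene was read from the brightest probe set annotated to it alone (18193 genes, 12573 above the filter). The fit was tested on simulated data with planted changes. Its noise was drawn apart for each probe set and array, so it holds no signal shared within single arrays, and no call rests on it. The member genes, lists and tests were chosen with earlier results of these data known. Named were all members, Foxf2, listed genes past the threshold or otherwise the 2 with the largest difference in each list, and the 5 most similar patterns. Tob1, Tob2, Btg1, Btg2, Cpeb4, Nanos1, Pum2, Edc4, Lsm2, Lsm14a and the Tnrc6 genes were added after their values were seen. Alternatives covered the offset, filter, normalization, variance model, array weights, replicate block, 1 probe set per gene and each array left out. The number of arrays limits precision: 3 against 3 cannot give an exact permutation p under 0.1.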

Additional observations from a re-analysis of the deposited data

How the results depend on the processing

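The count over the whole array moved most: 105 probe sets passed, against 181 with offset 1, 64 with offset 64, 52 with no filter, 167 with the filter at the 60th percentile, 56 with median centring, 0 without the variance trend, 13 with 1 probe set per gene and 220 with the replicate number as a block (replicate block). Leaving out 1 array gave 0 to 34, and leaving out both arrays numbered 3, chosen after seeing their muscle and pituitary signal, gave 0. The causes were not tested. Among CCR4-NOT probe sets, 1421000_at of Cnot4 alone passed, also with the replicate block (adjusted p = 0.0238, limma); the count was 0 without the variance trend, 0 with 1 probe set per gene, where this probe set is not the brightest, 0 to 0 without single arrays and 0 without both arrays numbered 3. Its log2 difference of -0.64 was -0.71 with offset 1, -0.49 with offset 64, -0.69 with median centring, and -0.66 to -0.61 without single arrays. The median of the other Cnot4 probe sets was 0.12 with 1 probe set per gene, which leaves only the brightest, and -0.15 to -0.08 without single arrays. The median of the other genes' probe sets was -0.06 to 0.00 without single arrays. Of the 30 member probe sets, 18 kept their sign in each alternative run for them (16, or 17 for the brightest of each gene) and 12 did not. Same-numbered arrays deviated together with correlations of 0.186, 0.134 and 0.0917 over probe sets, and each array correlated best with its own number. The sample titles give only a replicate number, so the main fit did not take the numbers as pairs. Whether same-numbered arrays share a source was not tested. The block changed no call among the members.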
